A study of Mus musculus with 2 samples.

Results

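Macrophages of the pancreatic islet were picked out of 2 droplet single-cell RNA libraries by the genes they express. A droplet barcode was kept as a cell if it held at least 1500 unique molecular identifiers (UMIs, each standing for 1 captured RNA molecule), at least 500 genes and at most 15% of its UMIs on mitochondrially encoded genes. A kept barcode counted as a macrophage if at least 3 of C1qa, C1qb, C1qc, Lyz2, Adgre1 and Csf1r had at least 1 UMI. It also had to hold less than 20% of its UMIs on Ins1 and Ins2 together, less than 5% on Gcg, less than 3% on Sst and less than 10% on Ppy, which are the hormone genes of the islet's endocrine cells. The rule found 325 macrophages among 21729 kept barcodes, 140 of 9667 in the library labelled CD and 185 of 12062 in the library labelled HFD. Because these genes chose the cells, their levels are given as a description.

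The study set islets of C57BL/6J mice, all 13 weeks old, on a high-fat diet (HFD) as a model of prediabetes beside a group called CD, a name the labels do not spell out. No genetic change, transgene or drug is named for either group. Each group is 1 library, and how many mice gave islets to it is not stated by the labels. No difference below has a replicate check, no test between the libraries was made, and every value describes these libraries and not the diets.

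Islet macrophages live inside the islet beside the beta cells and the capillaries. They take up material from their neighbours, display peptides on MHC class II, and are a main source of interleukin 1 beta and tumor necrosis factor in the islet. In obesity they are known to increase in number in mouse islets. A second kind of macrophage, marked by Mrc1 and Folr2, lies in the exocrine tissue and the stroma around the islets.

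Macrophages made up 1.45% of kept barcodes in the CD library (95% Clopper-Pearson interval 1.22 to 1.71) and 1.53% in the HFD library (1.32 to 1.77). The difference was 0.0855 percentage points, with an interval from -0.249 to 0.414 that includes 0, so a difference in share was not detectable at this number of cells. All intervals here cover counting error only. The libraries held 265836346 and 271527648 UMIs in all. Single CD macrophages held between 1628 and 21818 UMIs, with a median of 4763.5 UMIs and 1519 genes. Single HFD macrophages held between 1539 and 16961 UMIs, with a median of 4238 UMIs and 1314 genes. The median mitochondrial share was 2.44% in CD and 4.78% in HFD macrophages. Endothelial barcodes, of which there were 344 and 532 with median depths of 4442.5 and 4318 UMIs, carried at least 3 of 8 endothelial marker genes and fewer than 3 rule genes under the same hormone limits. Their mitochondrial shares differed in the same direction, with medians of 2.87% and 4.91%. No macrophage barcode sequence occurred in both libraries.

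Most members lay well inside the rule. All 6 rule genes were seen in 66 CD and 74 HFD macrophages, and 5 of the 6 in another 66 and 77. The barcodes at the edge, with only 3 of the 6 genes, numbered 2 in each library. Just outside it, 1 CD and 12 HFD barcodes met the hormone limits with 2 of the 6 genes. Their median was 7 rule-gene UMIs in HFD, and the CD barcode held 168. A macrophage held a median of 81 rule-gene UMIs in CD (lowest 9, highest 287) and 66 in HFD (lowest 6, highest 796). A further 25 CD and 52 HFD barcodes carried at least 3 of the rule genes and were over a hormone limit. They had median insulin shares of 49.5% and 52.6% with medians of 29575 and 24660.5 UMIs. A doublet score marked 2 CD and 12 HFD macrophages. At least 3 endothelial markers were seen in 1 CD and 4 HFD macrophages, and at least 3 T and NK cell markers in 1 CD macrophage and no HFD macrophage.

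The 3 chains of complement C1q, the molecule that starts the classical complement pathway, were seen in nearly every macrophage. C1qb (chromosome 4, 136880129 to 136886187, minus strand, GRCm38) had 3491 UMIs in CD and 3883 in HFD macrophages and was seen in 99.3% and 99.5% of them, against 1.18% and 1.43% of the other kept barcodes. C1qc, its neighbour at 136889804 to 136893065, had 2001 and 2240 UMIs and was likewise seen in 99.3% and 99.5%, against 0.777% and 0.80% of other barcodes. C1qa, at 136895917 to 136898803 in the same cluster, stood apart outside the macrophages. It was seen in 98.6% of CD and 98.9% of HFD macrophages, and also in 38.3% and 45.9% of the other kept barcodes. Which part of the gene those UMIs come from was not tested, and C1qa counts towards the rule. On the CPM scale, which sets a gene's UMIs against all UMIs summed over the cells, other kept barcodes held 27.4 and 44.2 of C1qa and only 1.88 and 3.42 of C1qb, whereas macrophages held 5450 and 5216 of C1qa and 4884 and 4728 of C1qb. Endothelial barcodes held 1.10 and 5.46 CPM of C1qa. A C1qa UMI alone therefore did not set macrophages apart from other barcodes, as a C1qb or C1qc UMI nearly did.

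The other 3 rule genes were Lyz2, a lysozyme, Csf1r, the receptor for the growth factor on which macrophages depend, and Adgre1, which encodes the F4/80 antigen. Lyz2 had 2470 and 2876 UMIs and was seen in 98.6% of CD and 94.1% of HFD macrophages. One HFD barcode held 18.9% of that library's macrophage Lyz2 UMIs. Csf1r had 336 and 304 UMIs and was seen in 91.4% and 72.4%. After every cell was thinned to 1500 UMIs the shares with Csf1r were 51.4% (42.8 to 60.0) and 41.6% (34.4 to 49.1), and no endothelial barcode kept a Csf1r UMI. Adgre1 had 126 and 161 UMIs and was seen in 52.9% and 56.2%.

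Genes outside the rule gave the same identity. Of 1448 genes with at least 50 UMIs in the macrophages of each library, 357 (24.7%) were at least 10 times higher in CPM than in all other kept barcodes in both libraries. Of the 24 identity genes listed apart from the rule, 22 passed that UMI minimum and 21 of them were at least 10 times higher in both libraries, with a median of 563-fold for the lower of each gene's 2 ratios. Tyrobp, the signalling adaptor of many myeloid receptors, was seen in 100% of the macrophages of both libraries, against 1.44% and 1.41% of other kept barcodes. Laptm5, a lysosomal protein of blood cells, was seen in 99.3% and 93.0%. Aif1, a calcium-binding protein of macrophages and microglia, was seen in 90.7% and 93.0%. These cells were compared with the barcodes they were chosen from, so the ratios describe the choice.

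The 25 genes with the highest ratios, ranked by the lower of the 2 libraries, ran from 997-fold to 2618-fold on that measure. Trem2, the lipid-sensing receptor of tissue macrophages, had 280 UMIs in CD and 258 in HFD and was 3055-fold (95% interval 2092 to 4613) and 1740-fold (1252 to 2472) higher than in other kept barcodes. It was seen in 55.7% and 54.1% of macrophages. The elastase gene Mmp12 had 409 and 537 UMIs and was seen in 52.1% and 57.3%. Tmem119, best known as a microglial gene, had 122 and 101 UMIs and was seen in 47.1% and 40%. The cysteine protease gene Ctss, whose product trims the MHC class II chaperone, had 2497 and 2369 UMIs and was seen in 100% and 98.9%.

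Fcgr1 and Fcgr3, receptors for the constant part of immunoglobulin G, had 90 and 278 UMIs in CD and 147 and 242 in HFD. C3ar1, the receptor for the complement fragment C3a, had 120 and 168 UMIs. Inhibitory and activating surface receptors included Lilrb4a, Lilr4b, Klra2, Cd300c2 and Slamf9, with ratios from 997-fold to 1352-fold for the lower library, and Lilrb4a and Lilr4b are close copies between which reads could have been divided. Cd300c2 was seen in 92.1% and 86.0% of macrophages. The membrane proteins Ms4a7 and Ms4a6d had 1106 and 99 UMIs in CD and 1320 and 110 in HFD. The ranking also held Lrrc25, Scimp, Sh2d1b1 and the G protein regulator Rgs1, of which Rgs1 was seen in 94.3% and 91.9% of macrophages. Bcl2a1a, an anti-apoptotic gene with close copies beside it, had 75 and 126 UMIs.

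Secreted signals made up another share of the 25. The chemokines Ccl3 and Ccl4, which recruit monocytes and T cells, were seen in 79.3% and 83.6% of CD and in 87.0% and 91.4% of HFD macrophages. Cxcl2, which recruits neutrophils, was seen in 62.9% and 61.6%. Tnf, which encodes tumor necrosis factor, was seen in 67.9% and 80.5%. Ccl12, a chemokine for monocytes, was seen in 20.7% and 20%. No more than 2.22% of other kept barcodes carried a UMI of any of these 5 genes.

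**Figure D1:**
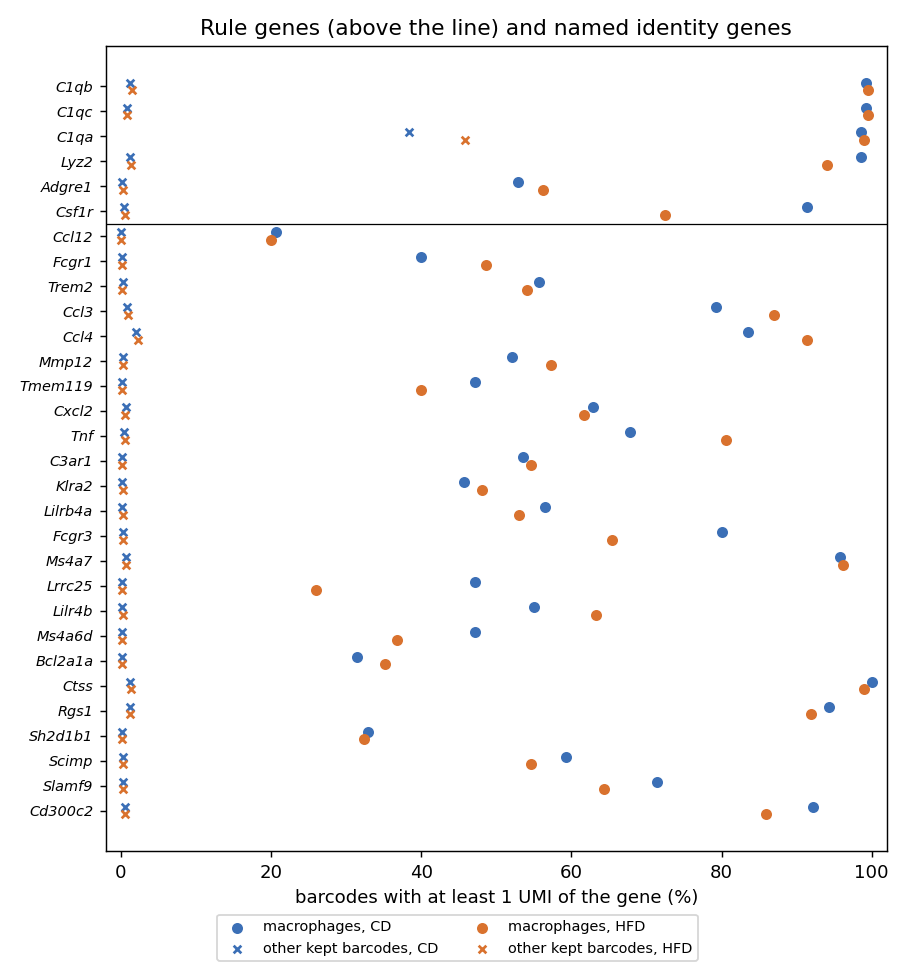
Share of barcodes with at least 1 UMI (x axis, %) for the 6 rule genes, above the line, and 24 of the 25 highest-ranked identity genes, below it (y axis). Filled points are macrophages (140 in CD, blue, and 185 in HFD, orange) and crosses are all other kept barcodes. The crosses lie at or below 2.22% except for C1qa, which 38.3% of other CD and 45.9% of other HFD barcodes carried.

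By function, a part of the MHC class II presentation genes was seen in nearly every macrophage. Others of that list were seen in fewer, with Cd86 in 52.1% and 46.5%, Ciita in 37.9% and 46.5% and H2-Ob in 8.57% and 8.11%. All 8 tested MHC class II genes were at least 10 times higher in both libraries, and 3 of 9 tested MHC class I genes were. Cd74, the invariant chain that guides MHC class II to the endosome, was seen in 100% of macrophages in both, against 6.18% and 5.88% of other kept barcodes. H2-Aa, H2-Ab1 and H2-Eb1, the MHC class II chains themselves, were each seen in at least 99.3% of CD macrophages and 99.5% of HFD macrophages. All 6 tested Fc receptor genes, 10 chemokine genes and 8 inflammatory cytokine genes were at least 10 times higher in both libraries. Over all 1448 genes the share was 24.7%. The 5 tested complement genes were as high, but C1qa, C1qb and C1qc among them are rule genes that chose the cells. Il1b, encoding interleukin 1 beta, was seen in 81.4% and 82.7%. Apoe, a lipid carrier, had 35991 and 31171 UMIs and was 1178-fold and 713-fold higher than in other kept barcodes. Of the 20 tested lysosomal genes, 11 were at least 10 times higher in both. None of the 23 tested nuclear oxidative phosphorylation genes was, and their median ratio for the lower library was 1.23-fold.

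Pdgfb, a growth factor known to act on beta cells and pericytes, had 69 UMIs in CD and 93 in HFD macrophages and was seen in 38.6% and 38.4% of them. It was 43.9-fold and 31.1-fold higher than in all other kept barcodes, but endothelial cells also make it, and after thinning 24.7% and 29.3% of endothelial barcodes had a UMI against 11.4% and 18.4% of macrophages. Igf1, the growth factor of many tissue macrophages, had 10 UMIs in each library.

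The C1qc promoter carries the letters bound by PU.1, the transcription factor of the macrophage lineage encoded by Spi1. Spi1 itself had 212 and 251 UMIs and was seen in 70.0% and 73.5% of macrophages, against 0.451% and 0.514% of other kept barcodes. The letters GAGGAAGT were searched on both strands in the 250 bases before each start in RefSeq's promoter table for GRCm38.p6. They occurred in 755 of 27025 promoters of the table (2.79%), in 1 of the 3 rule genes that the table holds, in 3 of 17 named identity genes (Bcl2a1a, Mmp12 and Slamf9) and in 0 of 17 genes of the identity list. A match is a description of these letters and not of a bound site. The stretch before C1qc, chr4:136893062-136893149 on the minus strand, is shown 5′ to 3′ on the gene's strand with the match, which lies on the opposite strand, in capitals.
C1qc: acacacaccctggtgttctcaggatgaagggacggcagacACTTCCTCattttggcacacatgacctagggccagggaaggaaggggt

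Most markers of other blood cells were at or near 0 in the macrophages, and several were not. Of 6 neutrophil markers, S100a8, S100a9, Retnlg and Cxcr2 had no UMI in either library, which allows up to 3 UMIs for each, while Csf3r had 17 and 23 UMIs in 12.1% of CD and 11.9% of HFD macrophages. Of 10 monocyte markers, Chil3, Hp and F10 had none, and Ly6c2 had 2 and 1. Ccr2, a receptor of monocytes and of the macrophages they give rise to, had 91 UMIs in 29.3% of CD and 127 in 33.5% of HFD macrophages. The 10 T and NK cell markers summed to 13 UMIs in 1 CD barcode and 2 UMIs in HFD. Of 10 dendritic cell markers, which summed to 65 and 62 UMIs, Ccr7 had none and Flt3 had 4 and 0, but Siglech, a marker of plasmacytoid dendritic cells, had 45 and 35 in 22.1% and 16.8% of macrophages. Of 9 B cell markers, Ms4a1, Pax5, Igkc and Jchain had none. Ighm, the immunoglobulin mu chain, nevertheless had 101 and 125 UMIs and was seen in 55.0% and 47.0% of macrophages, against 0.304% and 0.463% of other kept barcodes. Cd79b had 14 and 16 UMIs in 10% and 8.65% of macrophages. Csf3r, Siglech and Cd79b were each seen in at most 0.109% of other kept barcodes.

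RNA of the endocrine cells was present in every macrophage. The insulin genes took 3.14% of UMIs in the median CD macrophage (lowest 0.981%, highest 9.80%) and 4.41% in the median HFD macrophage (lowest 1.13%, highest 18.1%). In endothelial barcodes, which likewise do not make insulin, the medians were 3.04% and 3.71%. Barcodes with 10 to 100 UMIs, which hold the RNA free in the suspension, had 47.2% of their UMIs on the insulin genes in CD and 39.4% in HFD. The endocrine hormones of CD macrophages, taken as a percentage of their level in that free RNA, lay close together, with 7.16% for Ins1, 6.4% for Ins2, 7.25% for Iapp, 6.68% for Gcg, 6.94% for Ppy and 7.20% for Pyy. In HFD macrophages the same 6 genes stood at 12.3%, 11.1%, 12%, 13.3%, 10.5% and 12.6%. Sst stood at 9.17% and 14.9%. The insulin, Gcg, Sst and Ppy limits belong to the rule, while Iapp and Pyy do not.

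**Figure D2:**
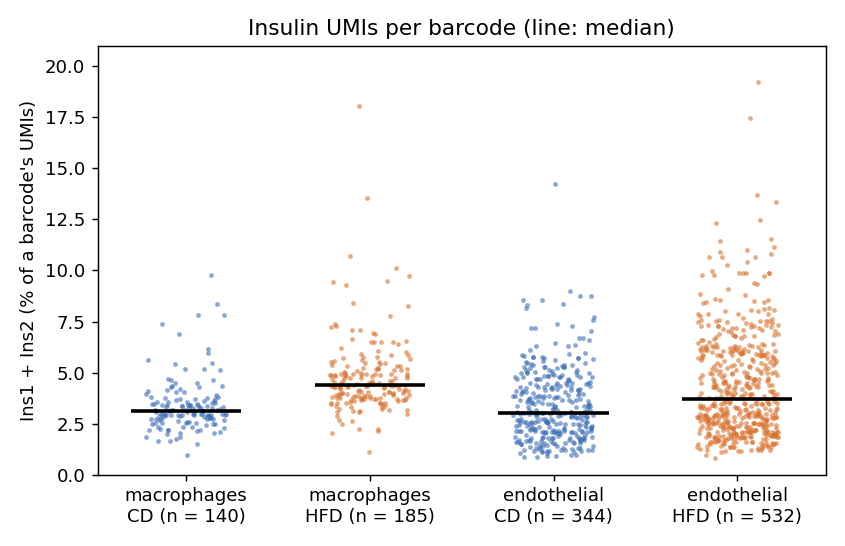
Share of each barcode's UMIs on Ins1 and Ins2 (y axis, %) in macrophages and endothelial barcodes of both libraries (x axis, with the number of barcodes), 1 point per barcode and a line at the median. Macrophage medians are 3.14% in CD and 4.41% in HFD, and the endothelial medians 3.04% and 3.71%.

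The comparison of HFD with CD asked how macrophages of the libraries differ. UMIs were summed over the macrophages of each library, 714836 in CD and 821313 in HFD, and scaled with TMM factors to CPM, so these differ slightly from the unscaled CPM above. The ratio of HFD to CD is given as log2 with a 95% interval from the conditional binomial distribution. Of 1618 genes with at least 100 UMIs over both libraries, 117 (7.23%) were at least 1.5 times higher in HFD and 80 (4.94%) at least 1.5 times lower. The median over all of these genes was 0.0040. These shares are the background of the list counts over all macrophages below. Scaled by total counts alone, the median was -0.08, and 94 genes were higher and 124 lower, so the balance of directions depends on the scaling.

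None of the 6 rule genes passed 1.5 times, and their log2 ratios ran from -0.26 for Csf1r to 0.24 for Adgre1. Of the 22 tested identity genes outside the rule, Fcgr1 was higher at 0.60 (0.21 to 0.99) and Cd14 lower at -0.78 (-0.99 to -0.58), with a median of 0.08. Of the 25 genes with the highest identity ratios, 6 were higher (Ccl3, Ccl4, Ccl12, Tnf, Fcgr1 and Bcl2a1a) and 1, Lrrc25, was lower. The 8 tested MHC class II genes had a median of 0.19 and none passed 1.5 times. H2-Ab1, with 6360 and 8800 UMIs, stood at 0.36 (0.31 to 0.40). Of the 10 tested macrophage transcription factors, Cebpa at -0.91 (-1.33 to -0.50) and Irf5 at -0.70 (-1.16 to -0.26) were lower. None of the 23 nuclear oxidative phosphorylation genes passed 1.5 times, with a median of 0.04.

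**Figure D3:**
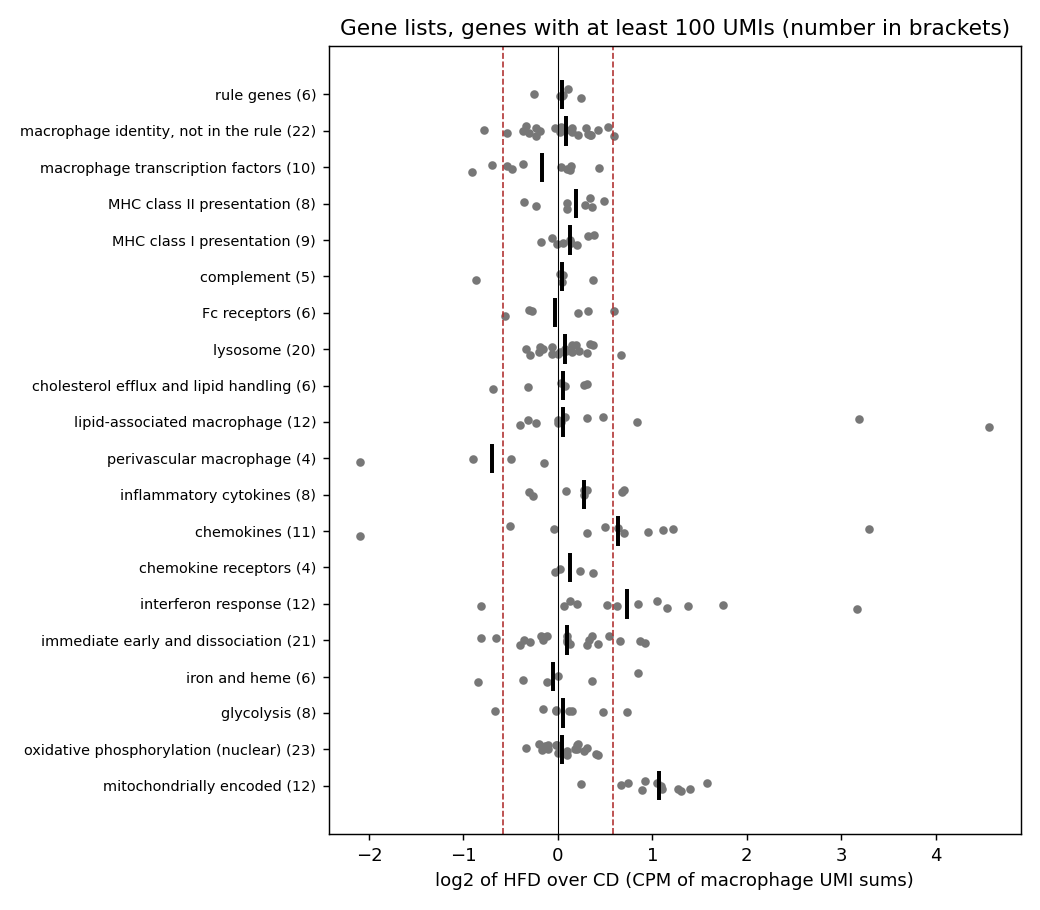
Log2 ratio of HFD to CD in macrophage UMI sums (x axis) for each gene with at least 100 UMIs, by gene list (y axis, number of genes in brackets). Points are genes, short bars are list medians and dashed lines mark 1.5 times in either direction. The chemokine list has its median at 0.63, the interferon response list at 0.73 and the mitochondrially encoded genes at 1.07, while the rule genes lie at 0.05.

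Interferon response genes, which cells turn on when they sense interferon, were often higher in HFD macrophages. Of the 12 tested of 25, 7 were at least 1.5 times higher (Isg15, Ifit1, Ifit2, Ifitm3, Trim30a, Oasl2 and Ifi204) and 1, Ifitm2, was lower. Their median was 0.73, beside 0.0040 for all genes tested, of which 7.23% were higher. Ifitm2 and Ifitm3 are similar neighbours, as are Ifi204 and its family, so reads could have been divided between them. In the other kept barcodes the tested interferon genes had a median of 0.90, beside 0.77 there for the rule genes, 0.77 for the identity genes and 0.76 for the MHC class II genes.

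Isg15, a ubiquitin-like protein made in response to interferon, had 68 UMIs in CD and 246 in HFD macrophages. It was seen in 22.9% and 42.7% of them, or in 11.4% (6.68 to 17.9) and 24.3% (18.3 to 31.2) after thinning to 1500 UMIs. The HFD library was higher, at 1.74 (1.35 to 2.15), and the thinned shares in endothelial barcodes were 9.01% and 12.2%. Ifit1, which binds foreign RNA, had 10 and 97 UMIs in 5.71% and 17.3% of macrophages, at 3.17 (2.23 to 4.27). Its thinned shares were 1.43% and 10.3%, and 4.94% and 7.71% in endothelial barcodes. Ifitm3, which blocks viral entry, had 170 and 476 UMIs in 31.4% and 53.5%, at 1.37 (1.12 to 1.64), with thinned shares of 17.1% and 34.1% beside 90.1% and 86.7% of endothelial barcodes, which express the gene widely. All of these were thus also present in cells other than macrophages. Among the genes under 100 UMIs, the transcription factor gene Irf7 had 5 and 91 UMIs, at 4.07 (2.80 to 5.73). Ifit3 had 5 and 78 UMIs at 3.85 (2.57 to 5.51), and the antiviral enzyme gene Rsad2 had 15 and 69 at 2.09 (1.27 to 3.0). In endothelial barcodes these stood at 0.61 for Irf7, 0.24 for Ifit3 and -0.12 for Rsad2. Isg15 and Ifit1 were higher in HFD there too, at 0.86 (0.54 to 1.19) and 0.78 (0.36 to 1.20).

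The HFD macrophages did not share this evenly. The list took a median of 19.1 UMIs per 10000 in CD macrophages (lowest 0, highest 101.6) and 21.9 in HFD macrophages (lowest 2.41, highest 311). The medians lay close, while the 90th percentile was 42.0 in CD and 72.4 in HFD. Grouping all macrophages by Ward linkage, without the rule and hormone genes, set apart 7 barcodes led by Cxcl9, Ifit3 and Irf7, all of them HFD, called Ward group 5 here. With 1 library per group, such a set may be that library and not a type. These 7 barcodes held 51.6% of the HFD macrophages' Irf7 UMIs, 61.5% of Ifit3, 43.5% of Rsad2, 24.0% of Isg15 and 21.6% of Ifit1. The interferon genes helped to form this group, so leaving it out lowers their ratios by construction. Without it the 9 tested interferon genes had a median of 0.34, beside -0.0015 for the 1582 genes then tested. Isg15 then stood at 1.40, Ifit1 at 2.87, Irf7 at 3.08 and Ifit3 at 2.53. Within Ward group 1, the largest, the 7 tested interferon genes had a median of 0.08. Over the 1160 genes tested in that group the median was 0.04.

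**Figure D4:**
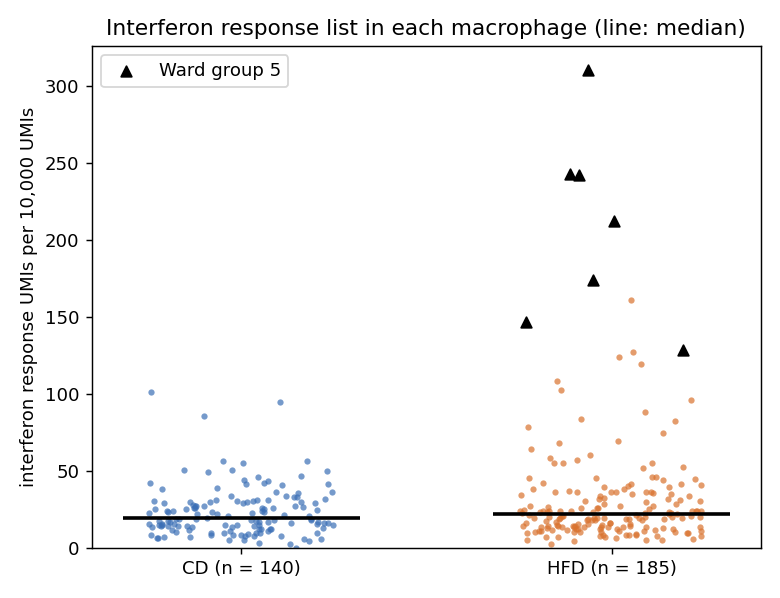
UMIs of the 25 interferon response genes per 10000 UMIs (y axis) in each macrophage of the CD and HFD libraries (x axis), 1 point per barcode and a line at the median. The medians are 19.1 and 21.9, and the 7 barcodes of Ward group 5, drawn as black triangles, lie between 128 and 311.

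Many of these genes share a sequence in front of their start. The interferon-stimulated response element is the site of the factor complex that interferon activates, and its core, GAAA, any 2 bases and GAAA again, was searched on both strands of the same RefSeq promoters. The core occurred in 12 of the 18 interferon list genes that the table holds (66.7%), and in 936 of all 27025 promoters (3.46%). The list was drawn up as one of interferon target genes, so this shows what its members share and not a result of these libraries. The stretches before 4 genes named above are shown 5′ to 3′ on each gene's strand, with every match, on either strand, in capitals. They lie at chr4:156200835-156200936 (minus strand) for Isg15, chr19:34640745-34640853 (plus) for Ifit1, chr19:34583333-34583456 (plus) for Ifit3 and chr12:26456523-26456612 (minus) for Rsad2.
Isg15: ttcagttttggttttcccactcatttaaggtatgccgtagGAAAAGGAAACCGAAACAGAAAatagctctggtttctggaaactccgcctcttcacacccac
Ifit1: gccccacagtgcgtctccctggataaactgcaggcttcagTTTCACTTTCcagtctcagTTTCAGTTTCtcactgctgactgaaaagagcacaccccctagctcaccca
Ifit3: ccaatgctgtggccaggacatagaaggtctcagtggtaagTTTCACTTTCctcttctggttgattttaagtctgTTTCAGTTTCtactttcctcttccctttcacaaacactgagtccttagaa
Rsad2: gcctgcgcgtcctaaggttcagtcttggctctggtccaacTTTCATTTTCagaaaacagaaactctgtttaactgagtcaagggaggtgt
Isg15 holds 3 overlapping matches, Ifit1 and Ifit3 hold 2 each, and Rsad2 holds 1. In Ifit1, Ifit3 and Rsad2 the matches lie on the opposite strand and so open with TTTC.

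Chemokines were the next list. Of the 11 tested of 17, 6 were at least 1.5 times higher in HFD (Ccl3, Ccl4, Ccl5, Ccl9, Ccl12 and Cxcl10) and 1, Pf4, was lower. Their median was 0.63, and the same genes had a median of 0.70 in the other kept barcodes. Of all 1618 genes tested in macrophages, 7.23% were higher. Ccl5, a chemokine for T cells and monocytes, had 70 UMIs in CD and 743 in HFD macrophages, and 1 barcode held 57.1% of the CD UMIs. It was seen in 10.0% and 31.9% of macrophages, or 5.71% (2.50 to 10.9) and 23.2% (17.4 to 30.0) after thinning, against 0 and 0.376% of endothelial barcodes. The ratio was 3.30 (2.94 to 3.67). Ward group 5 held 34.9% of the HFD UMIs of Ccl5, and without it the ratio was 2.73.

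The chemokines seen in most macrophages differed less. Ccl4 had 4016 and 6734 UMIs, at 0.63 (0.58 to 0.69). Ccl3 had 1082 and 1894, at 0.70 (0.59 to 0.81). Both libraries expressed them widely, and after thinning Ccl4 was seen in 79.3% (71.6 to 85.7) of CD and 87.0% (81.3 to 91.5) of HFD macrophages, against 0 and 0.752% of endothelial barcodes. Cxcl10, an interferon-induced chemokine for T cells, had 421 and 881 UMIs, at 0.95 (0.78 to 1.12). Ccl9 had 56 and 141 UMIs, at 1.22 (0.76 to 1.69), and Ccl12 had 56 and 131, at 1.12 (0.65 to 1.59). Cxcl2, at -0.04 (-0.14 to 0.05), did not differ by 1.5 times. Cxcl9, another interferon-induced chemokine, had 2 UMIs in CD and 88 in HFD, a ratio of 5.35 (3.45 to 8.42). Ward group 5 held 93.2% of its HFD UMIs, in 4 barcodes, and without that group the ratio was 1.53, with an interval reaching below 0. Within Ward group 1 alone, the 9 tested chemokines had a median of 0.92. All 1160 genes tested in that group had a median of 0.04.

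Of the 8 tested inflammatory cytokine and regulator genes, Tnf and Nfkbiz, a regulator of NF-kappaB targets, were higher, beside 7.23% of all tested genes. Tnf had 409 UMIs in CD and 719 in HFD macrophages, at 0.70 (0.53 to 0.88), and after thinning was seen in 48.6% (40 to 57.2) and 60% (52.6 to 67.1), and in no endothelial barcode. Nfkbiz had 272 and 469 UMIs, at 0.67 (0.46 to 0.90). Il1b was not higher, with 1514 and 1327 UMIs at -0.30 (-0.41 to -0.19). The interleukin 12 subunit gene Il12b had no UMI in CD and 54 in 7 HFD macrophages, at least 16.7-fold higher against 3 counts in CD, where the 54 UMIs are taken as exact. The counting interval of the ratio itself begins at a log2 of 3.71, and 1 barcode held 63.0% of the UMIs. Il1rn, the interleukin 1 receptor antagonist, was singled out after its values were seen. It had no UMI in CD macrophages and 40 UMIs in 15 HFD macrophages.

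**Figure D5:**
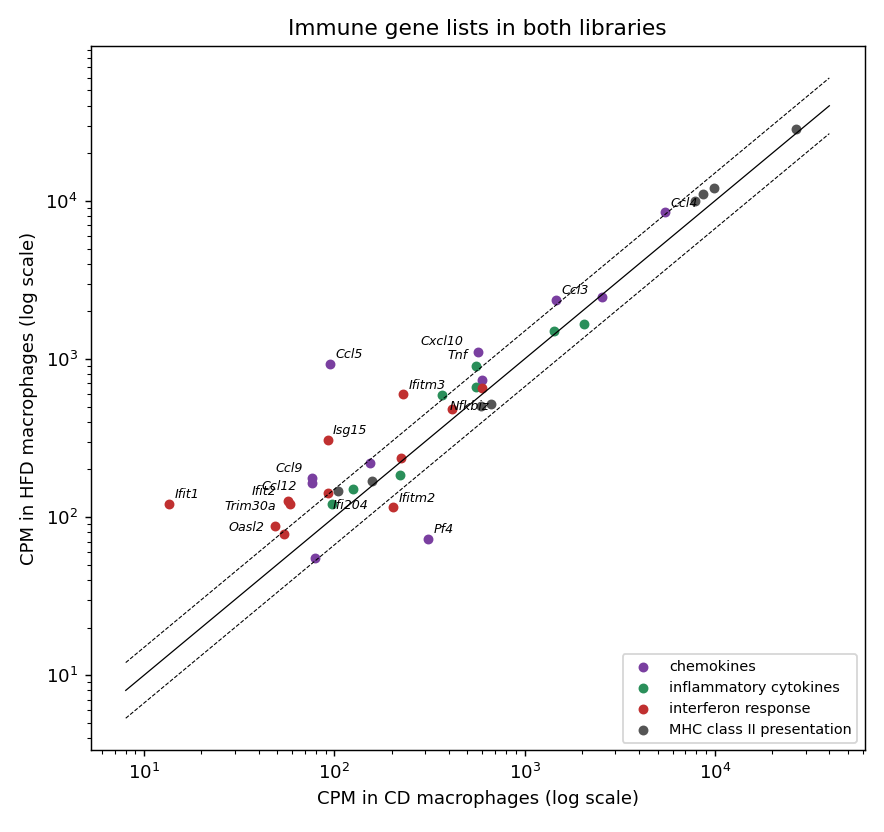
CPM of the summed macrophages in CD (x axis, log scale) and HFD (y axis, log scale) for chemokine, inflammatory cytokine, interferon response and MHC class II genes with at least 100 UMIs, 1 point per gene. The solid line marks equal levels, the dashed lines 1.5 times, and genes past them are named. Ccl5 at 95 and 933 CPM and Ifit1 at 13.6 and 122 CPM lie farthest above, Pf4 at 311 and 72.8 CPM farthest below, and the MHC class II genes between the dashed lines.

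Lipid-associated macrophages, which gather in obese fat tissue, are marked by Trem2, Cd9, Spp1, Lpl and Lgals3. Of the 12 tested of 17 genes in that list, Spp1, Fabp5 and Itgax were higher in HFD and none was lower, with a median of 0.05. Over all 1618 tested genes 7.23% were higher and 4.94% lower. Spp1, encoding osteopontin, had 7 and 179 UMIs, and 1 HFD barcode held 97.8% of them. Leaving out the barcode with the most UMIs in each library moved its ratio from 4.57 to 0.30. The fatty acid-binding protein gene Fabp5 had 12 UMIs in 5 CD and 118 UMIs in 9 HFD macrophages, at 3.19. Its top barcodes held 8 of the CD UMIs and 91 (77.1%) of the HFD UMIs. Without them the ratio was 2.64, which rests on few UMIs. Itgax, encoding CD11c, was spread over many cells, with 78 and 150 UMIs in 38.6% and 52.4% of macrophages, at 0.83 (0.43 to 1.25). Its thinned shares were 15.7% and 20.5%, and 0 in endothelial barcodes. Trem2 stood at -0.23 (-0.48 to 0.02), Apoe at -0.32 (-0.34 to -0.30) and Cd9 at -0.40 (-0.77 to -0.03).

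Few genes of perivascular and stromal macrophages had enough UMIs to be tested. Of the 4 tested of 15, Pf4 and Mrc1 were lower and none was higher, with a median of -0.69. Over all tested genes 4.94% were lower. Ccl8, a list member under 100 UMIs, went the other way, with 1 UMI in CD and 25 in 2 HFD macrophages. Pf4, a chemokine also made by platelets, had 229 UMIs in CD and 58 in HFD macrophages, at -2.09 (-2.53 to -1.67). Ward group 4 had 5 CD and 3 HFD barcodes led by Ccl8, Cd163, Folr2, F13a1, Pf4 and Mrc1. It held 78.6% of the CD and 51.7% of the HFD UMIs of Pf4. Within Ward group 1 the Pf4 ratio was 0.28, in the other direction. A further 26 of the CD UMIs lay in the 1 CD barcode of Ward group 6, while group 1 held 19 in CD and 24 in HFD. Pf4 could enter the grouping and is among the leading genes of group 4, so its concentration there is partly by construction.

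Lyz2 and Csf1r did not enter the grouping, but as rule genes they chose the cells, so their levels are a description. Group 4, with 8 barcodes over both libraries, held 9973 CPM of Lyz2 and 1207 of Csf1r, against 3371 and 411 in Ward group 1. Cd74 stood at 7530 CPM in group 4 and 28561 in group 1, and H2-Ab1 at 2558 and 9923, and those genes could enter the grouping. No group 4 barcode had an Il1b UMI, which was seen in 86.4% of group 1. The pancreatic lipase cofactor gene Clps, an acinar product, was among its leading genes and was seen in all 8 of its barcodes and in 5.76% of group 1. Acinar markers summed to 568 UMIs in CD and 92 in HFD macrophages, and in other kept barcodes their median log2 ratio was -3.92. The part of acinar RNA in the Pf4 difference was not tested.

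Ward group 3, with 10 CD and 13 HFD barcodes, was led by S100a4, S100a6, Mgl2, Ahnak and Ccr2. Ccr2 stood at 586 CPM there and 108 in group 1. Its C1qa level, 3188 CPM against 5645 in group 1, was the lowest apart from Ward group 6. It is given no cell type name here. Ward group 2, with 16 CD and 24 HFD barcodes, was led by the endocrine genes Chgb, Meg3, Chga and Pcsk2, with a median insulin share of 5.02% and a mitochondrial share of 6.08%, against 3.76% and 3.49% in group 1. Ward group 6, with 1 CD and 3 HFD barcodes, was led by endothelial genes, and C1qa stood at 1715 CPM. Ward group 1 held 108 CD and 135 HFD barcodes and was led by Ftl1-ps1, Rtcb and Ppcdc. Its 10 leading genes, none more than 3.75-fold above the other macrophages, also held Ctsd, Cebpa, Trem2 and Mmp12.

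Genes of endocrine and endothelial cells were among the genes with the largest ratios. Pan-endocrine markers were higher in HFD macrophages for 6 of 6 tested genes, beside 7.23% of all tested genes, with a median of 1.69. They summed to 333 UMIs in CD and 1251 in HFD, and 1 HFD barcode held 37.1% of the HFD sum. The granule protein gene Chgb had 17 and 220 UMIs, with 88.6% in 1 HFD barcode, and its ratio moved from 3.58 to 0.29 with marked doublets left out. The long noncoding RNA gene Meg3 had 76 and 274 UMIs at 1.74 (1.37 to 2.13), and at 0.78 within Ward group 1. Endothelial markers were lower for 3 of 4 tested genes, beside 4.94% of all tested genes. They summed to 355 and 224 UMIs, and 1 CD barcode held 97.7% of the CD sum. Esm1 and Flt1, both endothelial genes, had 99.1% and 100% of their CD UMIs in 1 barcode, at -1.28 and -1.26. With the barcode of most Esm1 UMIs left out in each library, Esm1 turned to 4.64. Mesenchymal markers summed to 35 and 6 UMIs, ductal markers to 28 and 208, nearly all of the latter Spp1, and erythroid markers to 6 and 33. The part of these other cells' RNA in the remaining differences was not tested.

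Mitochondrially encoded genes were higher in HFD macrophages for 11 of 12 tested genes, beside 7.23% of all tested genes, with a median of 1.07. The respiratory chain gene mt-Atp6 had 4084 UMIs in CD and 9421 in HFD, at 1.09 (1.04 to 1.15). In all other kept barcodes the same genes had a median of 0.56, and endothelial barcodes had mt-Atp6 at 0.67. The mitochondrial share of UMIs is also a measure of RNA quality and was limited by the rule, and its part in the other differences was not tested. Within Ward group 1 the count was likewise 11 of 12, but the 7.23% is the share over all macrophages and not over that group.

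Among other genes lower in HFD, Pla2g7 and Cd14 were spread over many macrophages. Pla2g7, which encodes a secreted phospholipase that degrades platelet-activating factor, had 195 UMIs in CD and 86 in HFD macrophages. It was seen in 61.4% and 27.0%, or in 25% (18.1 to 33.0) and 11.9% (7.61 to 17.4) after thinning, with no endothelial barcode carrying it. Its ratio was -1.29 (-1.68 to -0.92), and -1.18 within Ward group 1. Lsp1, a leukocyte actin-binding protein, had 105 and 48 UMIs in 37.1% and 16.2% of macrophages, at -1.24 (-1.77 to -0.73). It is a leading gene of Ward group 3, which held 31 of its CD and 16 of its HFD UMIs. Cd14, the co-receptor for bacterial lipopolysaccharide, had 491 and 308 UMIs and was seen in 83.6% and 60% of macrophages, or 55% and 33.0% after thinning, at -0.78 (-0.99 to -0.58). The chemokine receptor gene Ccr1 had 51 and 20 UMIs in 21.4% and 8.65% of macrophages, at -1.46 (-2.29 to -0.69). Lrrc25, one of the identity genes, had 98 and 57 UMIs at -0.89 (-1.39 to -0.41).

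Of 4 other lower genes, 3 were lower in endothelial barcodes as well. The cold-induced RNA-binding protein genes Rbm3 and Cirbp stood at -0.96 (-1.25 to -0.66) and -1.22 (-1.83 to -0.64) in macrophages, and at -0.91 and -1.17 in endothelial barcodes. Jund, a member of the AP-1 family, stood at -0.82 (-0.98 to -0.65) in macrophages and -0.26 (-0.34 to -0.18) in endothelial barcodes. The fourth was the ubiquitin ligase gene Rnf111, at -1.32 (-2.12 to -0.58) in macrophages and 0.33 (-0.11 to 0.78) in endothelial barcodes.

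The remaining lists had few genes past 1.5 times, beside 7.23% higher and 4.94% lower over all 1618 tested genes. Their genes are given singly and not as a trait of the list. Among genes induced by the dispersal of tissue, 3 of 21 tested were higher (Dnajb1, Hsp90aa1 and Nr4a1) and 2 lower (Jund and Ier3), with a median of 0.09. Fos had 2863 and 2855 UMIs and was seen in 97.1% and 97.3% of macrophages. Of 6 tested iron and heme genes, Hmox1, which degrades heme, was higher at 0.85 (0.41 to 1.29), and Trf, encoding transferrin, was lower at -0.84 (-1.15 to -0.54). Of 20 tested lysosomal genes, Ctsb alone passed, at 0.67 (0.51 to 0.82), and the list's median was 0.07. Cholesterol efflux and lipid handling had 1 of 6 tested genes lower, Abca1, at -0.69 (-1.22 to -0.17). Of 5 tested complement genes, C5ar1, a receptor of the fragment C5a, was lower at -0.87 (-1.38 to -0.37). Glycolysis had Hk2 higher at 0.73 and Gpi1 lower at -0.67 among 8 tested genes. None of 9 tested MHC class I genes passed, with a median of 0.13, and none of 4 chemokine receptors or 3 growth factors did.

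Dividing macrophages were rare. The 18 cell cycle genes summed to 645 UMIs in CD and 495 in HFD macrophages, and only Hmgb2 and Tubb5 had 100 UMIs, at -0.36 and -0.43, neither past 1.5 times. Mki67, a marker of dividing cells, had 17 and 11 UMIs in 4.29% and 2.70% of macrophages. Top2a, which acts in mitosis, had 22 and 3 UMIs, with 54.5% of the CD UMIs in 1 barcode.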

How the data were processed

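Pancreatic islet cells of 2 groups of mice, 1 library each, were measured by 10x Genomics 3′ single-cell RNA sequencing. The deposited matrices hold raw UMI counts per gene and barcode, with no normalization by the authors and all barcodes listed. The submitters' processing notes name Cell Ranger 6.0.1 and mm10, while per the file headers the software version was 3.0.2. No annotation release is named. Of the gene identifiers, 99.6% matched GENCODE M21 (GRCm38, the build of mm10), used for positions.

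Analysis used Python 3.11.15, scanpy 1.11.5 (scrublet doublet scores, the highest 0.8% per 1000 kept barcodes marked and kept in the analysis), scipy 1.17.1, and edgeR 4.0.16 in R 4.3.3 for TMM factors only. Free RNA was profiled in barcodes with 10 to 100 UMIs. It amounted to 7.25% of CD and 12.3% of HFD macrophage UMIs. Each is a median over genes of the macrophage level as a share of the free level. The genes were 11 hormone and acinar genes in CD and 7 hormone genes in HFD, so the sets are unlike. Single genes ran from 6.4% to 1026% in CD, the highest an acinar gene, and from 10.5% to 14.9% in HFD. Ratios were checked on simulated sums with Poisson counting error. That check does not cover genes whose UMIs lie mostly in 1 barcode. The members, gene lists and motifs were chosen with earlier results of these data known.

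Genes named between libraries had at least 50 UMIs and 50 CPM where higher and at least 3 times the free RNA contribution. The 12 highest and 12 lowest by the interval bound nearest 1 were taken, leaving out ribosomal, mitochondrial, hormone, acinar and unnamed genes. Identity genes needed 50 UMIs and 20% of macrophages in each library, and the first 25 were named. From each list, the members with the most UMIs and those past 1.5 times were added, with a few other list members chosen after their values were seen. Some genes that the rule names are not reported here. Ward groups used 15 components of 1000 variable genes, scaled within each library. Their 10 leading genes set the descriptions. Alternatives covered the cell filters, the rule, scaling, depth, free RNA, the UMI minimum and the fold.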

Additional observations from a re-analysis of the deposited data

How the results depend on the processing

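The macrophage share differed between the libraries by -0.226 to 0.175 percentage points under 10 alternative cell filters and rules, all inside the counting interval of the value reported. The count of 357 identity genes stayed between 318 and 362. The count of genes at least 1.5 times higher in HFD, 117, and lower, 80, moved with the scaling, with 124 lower under total counts. Thinning to 1500 UMIs per cell left 34 higher and 20 lower, with 1 interferon gene higher, among 496 genes tested. A minimum of 50 UMIs gave 276 higher, 215 lower and 11 interferon genes among 3092 genes tested. With a minimum of 200 these were 57, 24 and 2 among 781. The interferon counts under thinning and these minimums thus come from unlike sets of tested genes. A fold of 2 gave 36 higher and 10 lower, 3 chemokines and 7 mitochondrial genes. The cause of the moves under total counts and thinning was not tested.

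Alternatives added after seeing the data left out the top barcode of each gene, left out Ward group 5, or kept Ward group 1 alone. Interferon genes higher in HFD numbered 4, 4 and 2 there, against 7, and genes lower numbered 38 in Ward group 1 alone. These counts come from 1500, 1582 and 1160 tested genes in place of 1618, so the sets are unlike. Of the log2 ratios of single named genes, 458 values stayed, 34 moved and 10 changed direction. Esm1 turned to 4.73 without doublets, 1.41 without barcodes of another type, 0.83 with cells counted alike, 0.82 after thinning and 4.64 without its top barcode. Flt1 turned to at least 2.42 without doublets, 0.82 with cells counted alike, 0.20 after thinning and at least 2.70 without its top barcode. Pf4 turned to 0.28 in Ward group 1 alone.

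No paired analysis was possible because each group has 1 library and the result comes from no test. Depth limits genes under 100 UMIs, and 1 library per group leaves the spread between mice unknown.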
